A study of Mus musculus with 10 samples.

Results

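The lncRNA genes Neat1, Malat1, Gas5, Snhg1 and 1110038B12Rik, were followed in H4K20me1 and elongating RNA polymerase II profiles of cultured mouse muscle stem cells (MuSCs). They were chosen by name as nuclear lncRNAs or lncRNA hosts of snoRNAs, and a peak counted as theirs where the deposited table lists it with the gene's Ensembl identifier. The 5 genes held 2 of 44925 H4K20me1 peaks, on 2 of them (Neat1 and Malat1), and 11 of 51322 Pol II S2P peaks, on 4 of them. No peak was listed with Gas5 in either table, and no value is given for it.

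Neat1 is the architectural RNA of paraspeckles, nuclear bodies that assemble around it at its site of transcription, and Malat1 is an abundant RNA of nuclear speckles whose 3′ end is formed by cleavage of a tRNA-like structure. Gas5, Snhg1 and 1110038B12Rik are spliced and carry C/D box snoRNAs in their introns, so that a single transcription unit delivers small RNAs that guide the methylation of ribosomal RNA. H4K20me1 is laid down by Kmt5a and is the substrate of Kmt5b and Kmt5c, which add further methyl groups, and it is found over the bodies of transcribed genes. Phosphorylation of serine 2 in the C-terminal repeat of RNA polymerase II (S2P) marks elongating polymerase and is known to be high near the 3′ ends of genes.

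CUT&RUN, in which an antibody tethers micrococcal nuclease to its target and the released fragments are sequenced, was done on C57BL/6 satellite cells of 2 genotypes. Ctrl cells carried Pax7CreERT and intact Kmt5b (Pax7CreERT/Suv4-20h1WT in the labels) and sKO cells carried Pax7CreERT and floxed Kmt5b (Pax7CreERT/Suv4-20h1KO). Both were taken from mice given tamoxifen at an age of 8 to 12 weeks, isolated from limb and trunk muscle with magnetic beads, and grown on Matrigel with 20% FCS, LIF and bFGF, and the tamoxifen-dependent Cre acts in cells that express Pax7. Each genotype had 2 libraries per antibody (replicates 1 and 2, written Ctrl 1, Ctrl 2, sKO 1 and sKO 2), and the 2 IgG libraries of the series were not analysed here.

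The deposited value is a score, a whole number that stands for coverage of a peak normalised by spike-in and is not divided by peak length. Summed over all peaks, scores ran from 15218720 to 35046570 for H4K20me1 and from 3257665 to 4885638 for Pol II S2P. The Pol II S2P total of sKO 1 was 1.42 times that of sKO 2, and the H4K20me1 total of Ctrl 2 was 1.34 times that of Ctrl 1. The read depth behind a score is unknown, so no counting interval is given. Of 8 satellite cell and myoblast markers, 6 had a Pol II S2P peak, with summed scores of 4220 to 6292, and Myf5 and Cdh15 had none. Of 3 leukocyte markers Cd68 had peaks (840 to 1308) and Ptprc and Adgre1 had none, of 3 endothelial markers Pecam1 had a peak (82 to 147), and none of the 3 fibro-adipogenic markers had one. Kmt5b itself scored 1332, 1740, 1934 and 2196 for H4K20me1 and 24, 62, 48 and 22 for Pol II S2P in Ctrl 1, Ctrl 2, sKO 1 and sKO 2, which does not check the deletion, since peaks over the whole gene were summed.

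The genes lie on 3 chromosomes (GRCm38 with GENCODE M21 spans). Neat1 (chr19:5824708-5845478, minus strand) and Malat1 (chr19:5795690-5802672, minus strand) follow each other in the same direction, with 22035 bases between the end of Neat1 and the start of Malat1. Snhg1 (chr19:8723475-8726443, plus strand) holds 8 snoRNA loci, Gas5 (chr1:161034422-161038539, plus strand) holds 9 and 1110038B12Rik (chr17:34950238-34952471, minus strand) holds 2. Of 20 snoRNA entries in the annotation, overlapping Snord80 entries counted separately, 16 had both a TGATGA (C box) in the first 25 bases and a CTGA (D box) in the last 20. All 8 loci of Snhg1 overlapped a Pol II S2P peak, against 1 of 2 in 1110038B12Rik, and no H4K20me1 peak overlapped the loci of either gene.

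A few of these snoRNA genes are shown as examples under a peak, in a gap between peaks and across the edge of a peak. The sequences are GRCm38.p6, on the strand of the host, with the C box and the D box in capitals. Snord52 lay under the long Pol II S2P peak of 1110038B12Rik (chr17:34950952-34951017) and Gm25744 in the gap between the 2 peaks of that gene (chr17:34952013-34952075). Gm23246 (chr19:8725594-8725660) began in the gap of 54 bases between the 2 peaks listed with Snhg1.
Snord52: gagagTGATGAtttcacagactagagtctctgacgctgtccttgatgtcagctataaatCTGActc
Gm25744: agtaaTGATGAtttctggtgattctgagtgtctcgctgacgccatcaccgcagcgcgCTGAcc
Gm23246: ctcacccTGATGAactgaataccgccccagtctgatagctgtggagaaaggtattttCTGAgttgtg

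RefSeq promoters (GRCm38.p6, 250 bases before to 50 after the start) were found for 4 of the 5 genes and not for Neat1. Those of the 3 genes with listed peaks are shown because the starts differed in whether a Pol II S2P peak covered them. A peak covered the annotated start of 1110038B12Rik and, through a peak listed with Slc3a2, of Snhg1, whereas the peak nearest to the start of Malat1 lay 121 bases upstream of it. The motifs searched, on both strands, are in capitals: TATAAA, found in 13.6% of all 32851 promoters, CCAAT, found in 37.4%, and TGACGT, the core of a cAMP response element, found in 7.51%. The motifs do not overlap each other here. The 1110038B12Rik promoter held TATAAA once on the strand of the gene (at -28 from the start). The Snhg1 promoter held it once on the opposite strand only (at -29), printed as TTTATA. That of 1110038B12Rik also held CCAAT at 2 places, the one at -185 on the opposite strand (ATTGG). The Malat1 promoter held TGACGT at 2 places (-155 and -45), the one at -155 on the opposite strand (ACGTCA). G and C made up 56.7% of the promoter of Snhg1, 47.7% of that of 1110038B12Rik and 47% of that of Malat1.
Malat1 chr19:5802623-5802922, minus strand: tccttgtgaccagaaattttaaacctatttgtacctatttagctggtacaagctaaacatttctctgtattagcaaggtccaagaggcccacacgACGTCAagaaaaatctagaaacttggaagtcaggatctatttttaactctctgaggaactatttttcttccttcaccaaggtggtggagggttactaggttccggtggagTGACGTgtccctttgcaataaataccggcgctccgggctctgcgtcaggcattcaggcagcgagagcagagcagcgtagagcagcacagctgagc
Snhg1 chr19:8723237-8723536, plus strand: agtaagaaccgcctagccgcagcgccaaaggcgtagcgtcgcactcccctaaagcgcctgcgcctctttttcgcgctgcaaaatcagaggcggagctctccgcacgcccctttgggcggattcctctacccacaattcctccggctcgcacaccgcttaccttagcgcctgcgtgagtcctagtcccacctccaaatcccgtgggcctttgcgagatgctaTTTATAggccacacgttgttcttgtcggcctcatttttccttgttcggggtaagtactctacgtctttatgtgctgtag
1110038B12Rik chr17:34952422-34952721, minus strand: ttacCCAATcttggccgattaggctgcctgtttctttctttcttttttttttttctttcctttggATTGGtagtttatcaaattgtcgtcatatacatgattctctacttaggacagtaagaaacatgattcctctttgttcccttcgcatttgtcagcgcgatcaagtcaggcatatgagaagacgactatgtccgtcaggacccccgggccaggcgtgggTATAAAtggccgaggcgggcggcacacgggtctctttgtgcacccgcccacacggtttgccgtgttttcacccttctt

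Elongating polymerase covered most of the 4 genes with listed peaks and ran past the annotated end of each. On Neat1, 4 listed peaks covered 95.3% of the gene: a peak of 973 bases at the start, one of 232 bases, one of 11006 bases over the middle and one of 15792 bases that extended 7736 bases past the end. By length the last ranked 2 and the middle one 6 among the 51322 Pol II S2P peaks. On Malat1, 3 listed peaks covered 72.8% of the gene, and the longest (7033 bases) extended 3888 bases past the end. The long peak of Snhg1 ran 3222 bases past its end and that of 1110038B12Rik 3084 bases.

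Long extensions of this kind were rare in the table. Of 8520 genes tested for Pol II S2P and found in the annotation, a listed peak crossed the annotated end in 907 (10.6%) and ran over 3 kb past it in 67 (0.786%). Neat1, Malat1, Snhg1 and 1110038B12Rik were all among the 67. The limit of 3 kb lies just below the shortest of their extensions (3084 bases, 1110038B12Rik). The 8520 genes were not matched to them for score or peak length, so whether such extensions are particular to these genes was not tested. A listed peak covered the annotated start in 46.9% of the same genes, which included Neat1 and 1110038B12Rik.

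**Figure D1:**
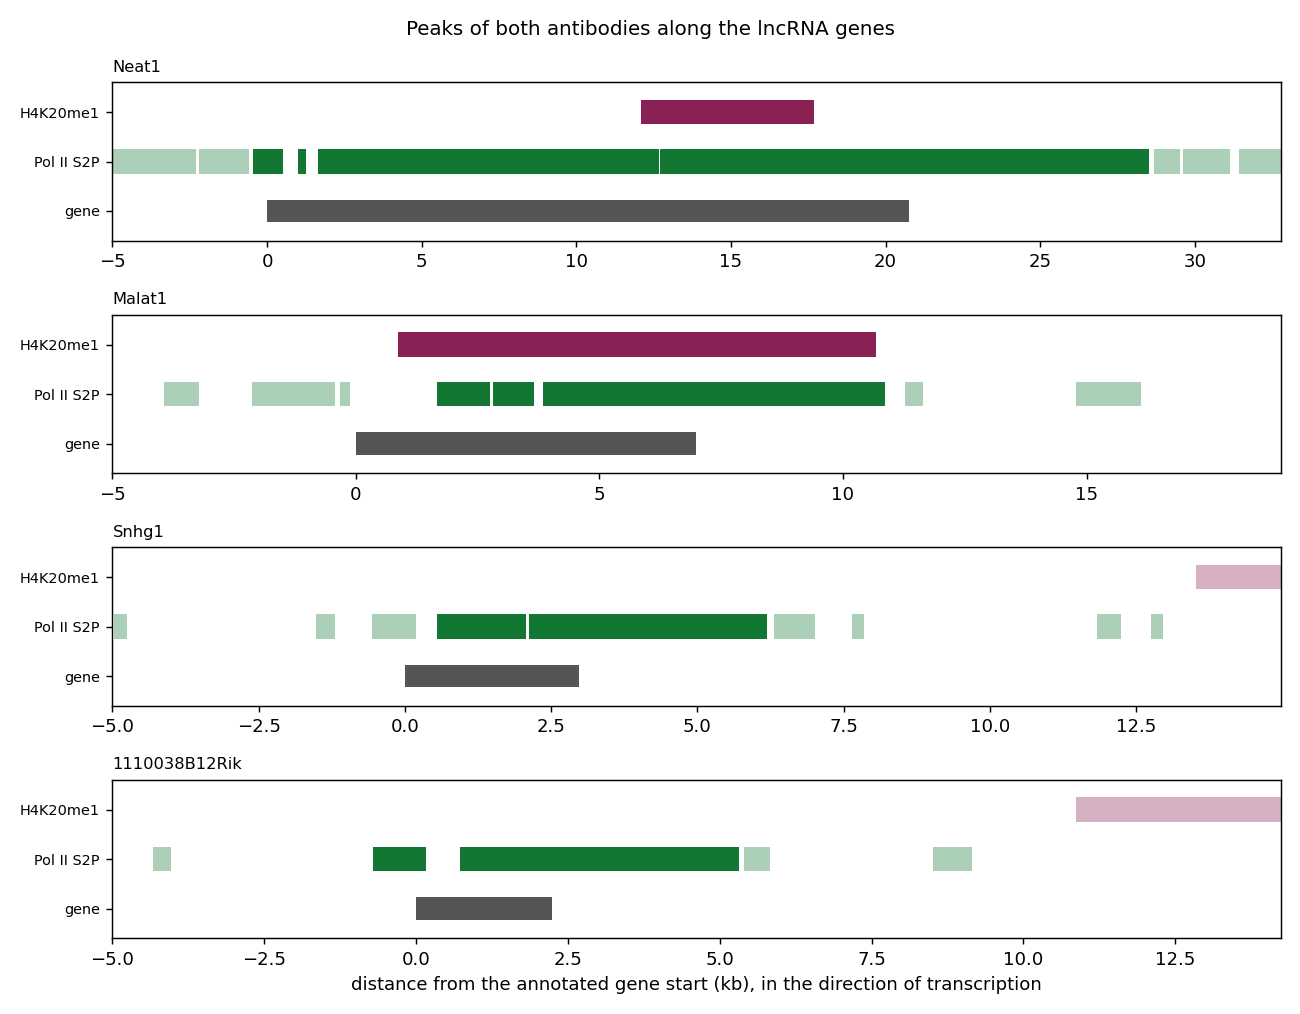
Peaks of Pol II S2P (green) and H4K20me1 (purple) along the 4 genes with listed peaks (grey bars, from annotated start to end), by distance from the gene start in kb in the direction of transcription; dark peaks are listed with the gene and pale ones with another gene or none. In each gene a Pol II S2P peak runs past the end of the grey bar, by 3084 bases in 1110038B12Rik to 7736 bases in Neat1.

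Most of the Pol II S2P score of Malat1, Snhg1 and 1110038B12Rik came from the peak at the 3′ side, which was also the longest. Scores are not divided by length, so a long peak holds a large share at an even level. Per kb, the last peak of 1110038B12Rik had 186, 212, 258 and 150 in Ctrl 1, Ctrl 2, sKO 1 and sKO 2. Its start peak had 177, 210, 206 and 115. The last peaks of Malat1 and Snhg1 were higher per kb than their other listed peaks in every library (in Ctrl 1, 347 against 207 and 154, and 270 against 132). The long last peak held 87.6% to 89.6% of the Malat1 score in the 4 libraries, 82.6% to 87.4% of the Snhg1 score and 84.4% to 87.4% of the 1110038B12Rik score. Neat1 was split between its middle peak (50.8% to 52%) and its last peak (44.8% to 46.2%), and the peak at its start held 2.28% to 3.99%. The share of the last peak was higher in the 2 sKO libraries than in the 2 Ctrl libraries for Malat1 (87.6% and 88% in Ctrl, 88.8% and 89.6% in sKO) and 1110038B12Rik (84.8% and 84.4%, 87% and 87.4%). It was lower for Snhg1 (84.6% and 87.4%, 83.9% and 82.6%), and the groups overlapped for Neat1. These differences of a few percentage points were not tested.

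Per kb of listed peak, Malat1 and Neat1 stood among the highest of the 8531 genes tested, with Snhg1 and 1110038B12Rik lower in the upper part. The mean over the 4 libraries was 336 per kb for Malat1, at percentile 99.1 of all tested genes, 314 for Neat1 (percentile 98.6), 236 for Snhg1 (percentile 93.9) and 198 for 1110038B12Rik (percentile 85.5). The order of Malat1 and Neat1 was not stable: single libraries ran from 267 to 411 for Malat1 and from 227 to 428 for Neat1. Snhg1 ran from 182 to 289 and 1110038B12Rik from 144 to 250, and in each library 1110038B12Rik was lower than Snhg1 and Snhg1 lower than Malat1. As a sum over its peaks, not per length, Neat1 ranked 6 among the tested genes and Malat1 ranked 53. These levels and ranks include signal past the gene ends. Of the last peak, 44.7% lay inside the gene for Malat1, 51% for Neat1, 20.7% for Snhg1 and 32.9% for 1110038B12Rik.

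No difference in Pol II S2P between genotypes passed the test at the 4 genes with listed peaks. The Neat1 score was 6343 in Ctrl 1, 8546 in Ctrl 2, 11999 in sKO 1 and 8276 in sKO 2, so that Ctrl averaged 7444.5 ± 1557.8 and sKO 10137.5 ± 2632.6 (SD, n = 2 per genotype). The sKO 1 library was the highest and the sKO 2 library lay between the Ctrl libraries, so the groups overlapped. The log2 fold change, sKO over Ctrl, was 0.44 (SE 0.41, adjusted p = 1, limma). For Malat1 the scores were 2783, 3196, 3691 and 2398 in the same order, with sKO 1 above and sKO 2 below both Ctrl libraries. Its log2 fold change was -0.0035 (SE 0.43, adjusted p = 1, limma).

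Both snoRNA hosts showed the same order of libraries, sKO 1 highest and sKO 2 lowest. Snhg1 scored 1298, 1348, 1611 and 1018 and had a log2 fold change of -0.047 (SE 0.43). 1110038B12Rik scored 1009, 1158, 1365 and 787 (-0.061, SE 0.43). The adjusted p was 1 for both (limma). In all 4 genes the sKO 1 score exceeded that of sKO 2, as did the total of the whole table, and the part of that scale in the values was not tested.

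In this test no other gene was called either. For Pol II S2P limma called 0 of 8531 genes higher (0%) and 0 lower. A call needs an adjusted p below 0.1 and a log2 fold change beyond 0.5 in size. The unadjusted p was below 0.05 in 95 genes with higher and 5 with lower scores. The paper set the same limits with DESeq2 on coverage per gene and reported raised Pol II S2P at a large number of genes. It also reported a higher Pol II S2P level by western blot. The absence of calls here, with 2 libraries a group, does not show that Pol II S2P was unchanged. The 2 sKO libraries both exceeded the 2 Ctrl libraries in 9.41% of the tested genes and in none of the 4 genes with listed peaks. Of the 11 listed peaks, 10 passed the filter (a mean score over 50), and none of the 10 was called, against 10 of 22353 peaks called higher (0.0447%). With the libraries scaled to equal totals, which lowered the median log2 fold change of all genes from 0.089 to -0.050, Neat1 had 0.30 (SE 0.089, adjusted p = 0.0732, limma), which passed the p but not the fold that a call needs. On that scale Malat1 (-0.14), Snhg1 (-0.19) and 1110038B12Rik (-0.20) had adjusted p-values of 0.457 to 0.547, and none was among the 0.856% of genes called lower. The peaks gave the same picture, with 0 of 10 called on equal totals against 2.51% of all peaks called higher.

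**Figure D2:**
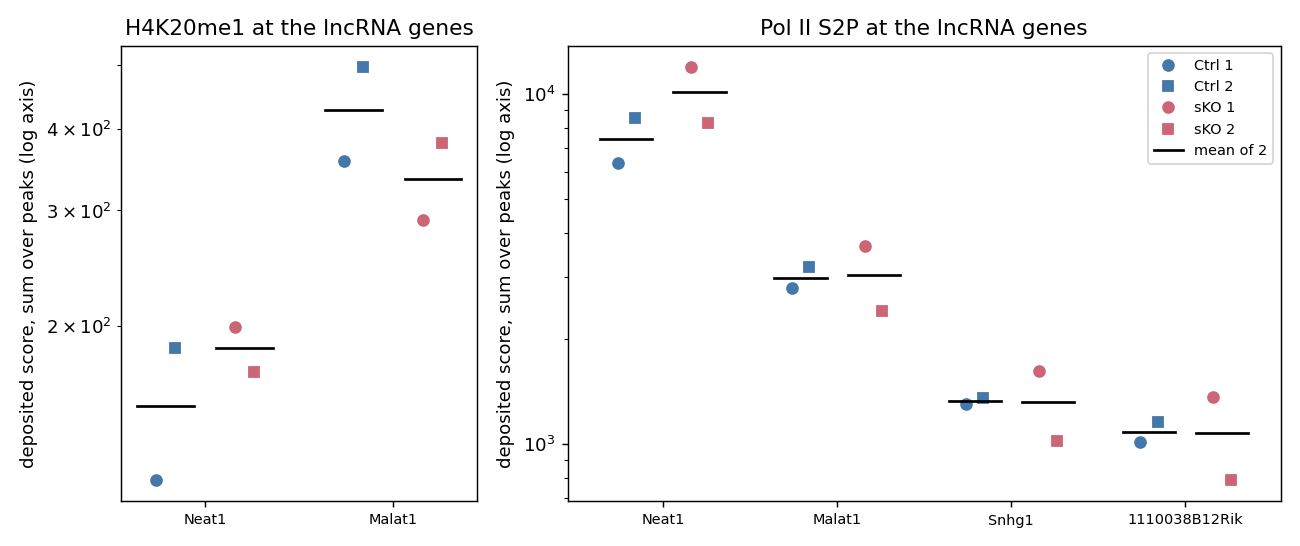
Deposited scores summed over the peaks of each gene (log axis) in every library, with blue for Ctrl, red for sKO, circles for replicate 1, squares for replicate 2 and black lines for the mean of the 2. The 2 groups overlap for Neat1 and Malat1 in H4K20me1 and for all 4 genes in Pol II S2P, where sKO 1 is the highest library in each.

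The stretch between Neat1 and Malat1 also carried elongating polymerase. Between the end of the last Neat1 peak and the start of Malat1 lay 7 Pol II S2P peaks, none listed with a gene. Together with the Neat1 peak they covered 80.4% of the interval between the 2 genes. Their summed score was 1867 in Ctrl 1, 2340 in Ctrl 2, 3470 in sKO 1 and 2165 in sKO 2, which per kb was 187, 234, 347 and 217. The sKO 1 library was highest and the sKO 2 library lay between the Ctrl libraries, as for Neat1 itself. The largest of the 7 (chr19:5809491-5814036) scored 242 per kb in Ctrl 1, 307 in Ctrl 2, 431 in sKO 1 and 291 in sKO 2, and its log2 fold change of 0.38 (SE 0.42, adjusted p = 1, limma) was close to that of the long Neat1 peaks (0.46 and 0.44).

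**Figure D3:**
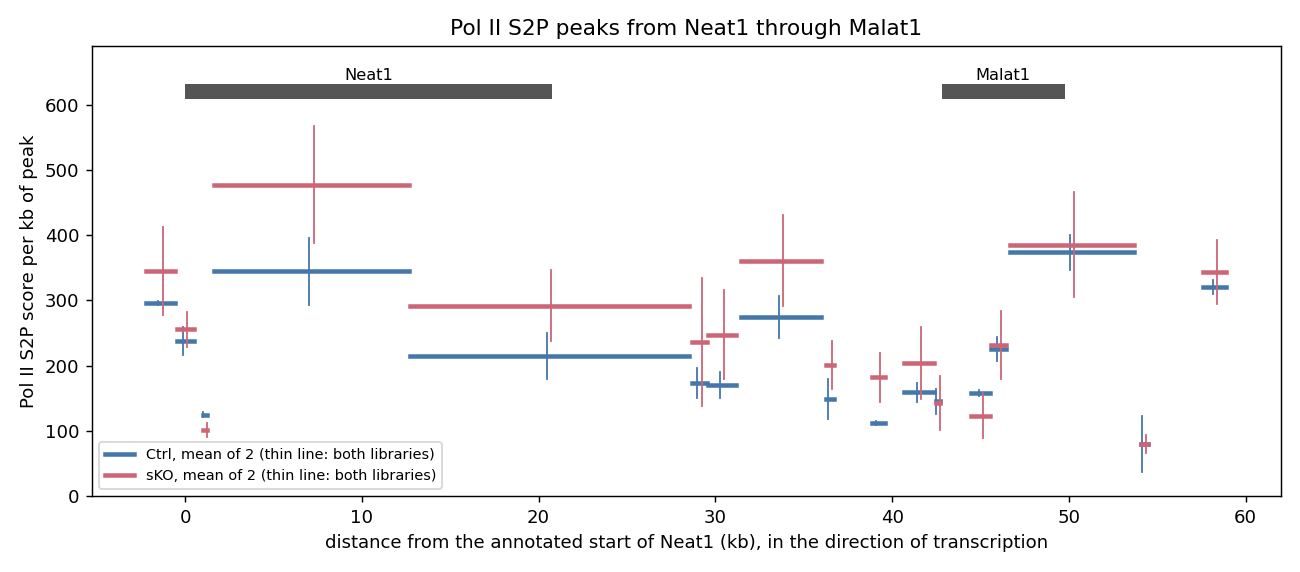
Pol II S2P score per kb of each peak (y axis) against distance from the annotated start of Neat1 in kb (x axis), through Malat1; thick lines span the peaks at the mean of 2 Ctrl (blue) or 2 sKO (red) libraries and thin lines join the 2 libraries. The 7 peaks between the genes sum to 187 to 347 per kb over the libraries, and the long Malat1 peak reaches 305 to 466 per kb.

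H4K20me1 was listed on Neat1 and Malat1 alone. The Malat1 peak (chr19:5792000-5801799, 9800 bases) covered 87.5% of the gene, left its start free and extended 3690 bases past the end, close to the 3888 bases of the longest Pol II S2P peak. The Neat1 peak (chr19:5827800-5833399, 5600 bases) lay wholly inside the gene, in its 3′ part, and covered 27% of it. Snhg1 and 1110038B12Rik had no H4K20me1 peak over their spans. The nearest H4K20me1 peak was 10.6 kb from Snhg1, listed with Stx5, and 8.64 kb from 1110038B12Rik, listed with no gene. Of the 8520 genes tested for Pol II S2P, 12.2% had no H4K20me1 peak over their span, and of the 990 among them shorter than 5 kb, as both of these hosts are, 39.9% had none.

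Malat1 and Neat1 were not among the many genes called higher for H4K20me1 in sKO cells. limma called 12690 of 13750 genes higher in sKO (92.3%) and 0 lower, the unadjusted p was below 0.05 in 12421 genes with higher and 0 with lower scores, and the median log2 fold change was 1.11. Neither Malat1 nor Neat1 was called. Malat1 scored 357 in Ctrl 1, 498 in Ctrl 2, 290 in sKO 1 and 381 in sKO 2, so that Ctrl averaged 428 ± 99.7 and sKO 336 ± 64.3 (SD, n = 2 per genotype). The lowest value was an sKO library and the highest a Ctrl library, with the other two between them, so the groups overlapped. The log2 fold change was -0.34 (SE 0.28, adjusted p = 0.229, limma). A fold change below 0 was found in 58 of 13750 genes (0.422%), and that of Malat1 ranked 8 from the lowest.

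Neat1 scored 116 in Ctrl 1, 185 in Ctrl 2, 199 in sKO 1 and 170 in sKO 2, so that Ctrl averaged 150 ± 48.8 and sKO 184 ± 20.5 (SD, n = 2 per genotype). Ctrl 1 was lowest and the other 3 libraries lay close together. The log2 fold change was 0.33 (SE 0.35, adjusted p = 0.362, limma), rank 387 from the lowest. The 2 sKO libraries both exceeded the 2 Ctrl libraries in 96.5% of the tested genes, but in neither of these. At the level of peaks, 90.1% of 40902 tested peaks were called higher and the 2 peaks of these genes were not. How far the share of cells carrying the mark and the amount per cell each contribute cannot be told apart in bulk profiles.

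The direction of Neat1 and the call of both genes turned on the scale between libraries. With the libraries at equal totals, where the median over all genes was 0.13, Malat1 was called lower, at -1.32 (SE 0.16, adjusted p = 7.35e-10, limma), and Neat1 was called lower at -0.65 (SE 0.26, adjusted p = 0.0315, limma), against 5.69% of all genes called lower. On the deposited scale the difference from the median gene was -1.45 for Malat1 and -0.79 for Neat1 in log2 units, and they took rank 8 and rank 394 from the lowest on equal totals. The Ctrl libraries also decided calls on the deposited scale. Without Ctrl 1, Malat1 had a log2 fold change of -0.58 (adjusted p = 0.0127, limma) and was called lower, and Neat1 had -0.0083 (adjusted p = 0.98). Without Ctrl 2, Malat1 had -0.10 (adjusted p = 0.657, limma) and Neat1 was called higher at 0.66 (adjusted p = 0.0332).

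**Figure D4:**
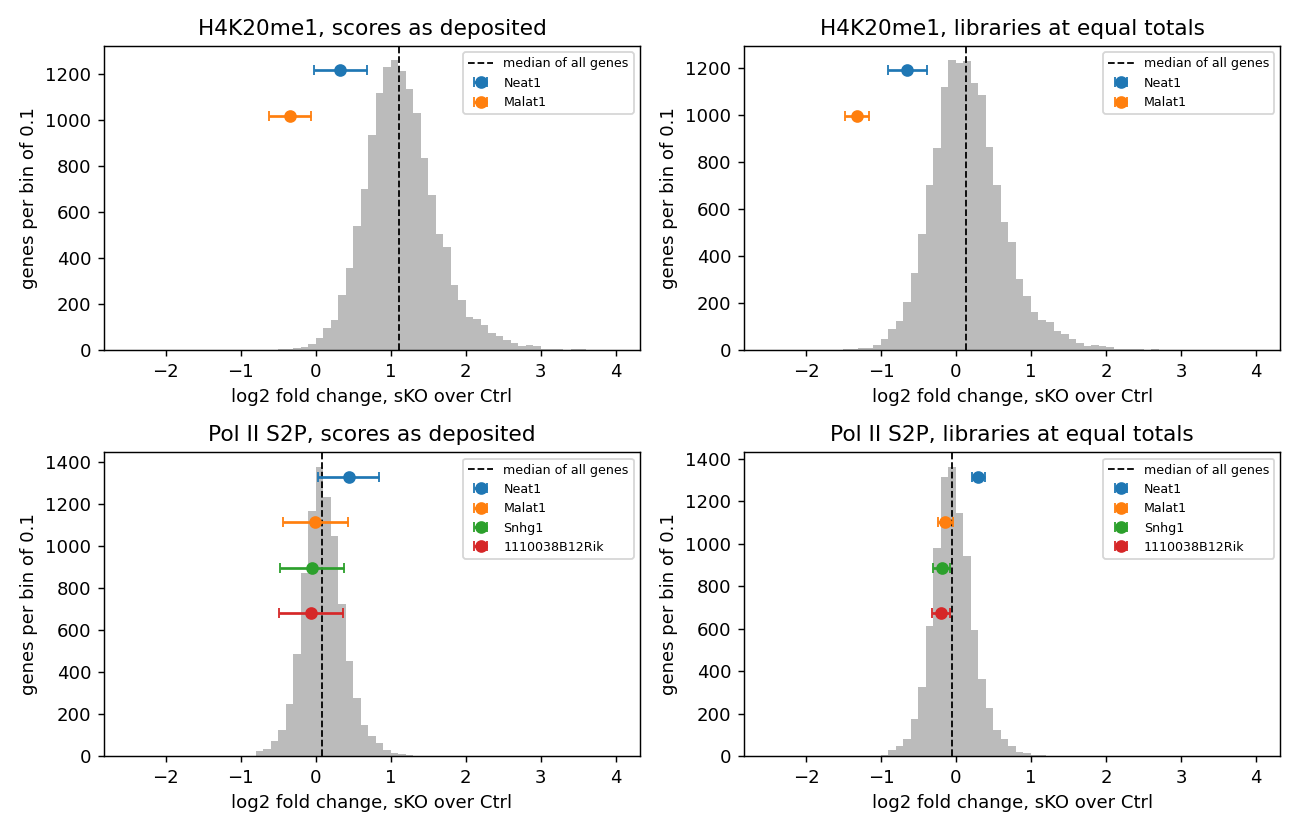
Distribution of the log2 fold change (sKO over Ctrl, x axis) over all tested genes (grey, genes per bin of 0.1, with a dashed line at the median) for H4K20me1 (top) and Pol II S2P (bottom), on deposited scores (left) and equal totals (right); points with bars are the listed lncRNA genes with their SE, their height having no meaning. For H4K20me1 Malat1 (-0.34 and -1.32) and Neat1 (0.33 and -0.65) lie left of the median on both scales.

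The H4K20me1 peak on the start side of Neat1 rose, while those of Neat1 and Malat1 did not pass the test on the deposited scale. This peak, listed with Frmd8, which encodes a FERM domain protein, lay 27.9 kb away and scored 77, 59, 342 and 335. Both sKO libraries were far above both Ctrl libraries (log2 fold change 2.31, SE 0.36, adjusted p = 5.26e-09, limma), and the peak stayed called higher at 1.34 on equal totals. Within each library, the Neat1 level per kb was set against the mean of the nearest peak on either side, those of Malat1 and Frmd8. In log2 units, Ctrl gave -0.015 and 0.61 and sKO gave -0.16 and -0.57, a difference of -0.66 (pooled SD 0.37). The exact permutation p was 0.33, the smallest that 2 against 2 libraries allow (two-sided). The 2 sKO values lay below the 2 Ctrl values, while the Frmd8 flank went from 12 and 9.22 per kb to 53.4 and 52.3. Beside the Malat1 peak alone, Neat1 had 20.7 per kb against 36.4 in Ctrl 1 and 33 against 50.8 in Ctrl 2, and 35.5 against 29.6 in sKO 1 and 30.4 against 38.9 in sKO 2, so that it came closer to Malat1 or above it in sKO.

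**Figure D5:**
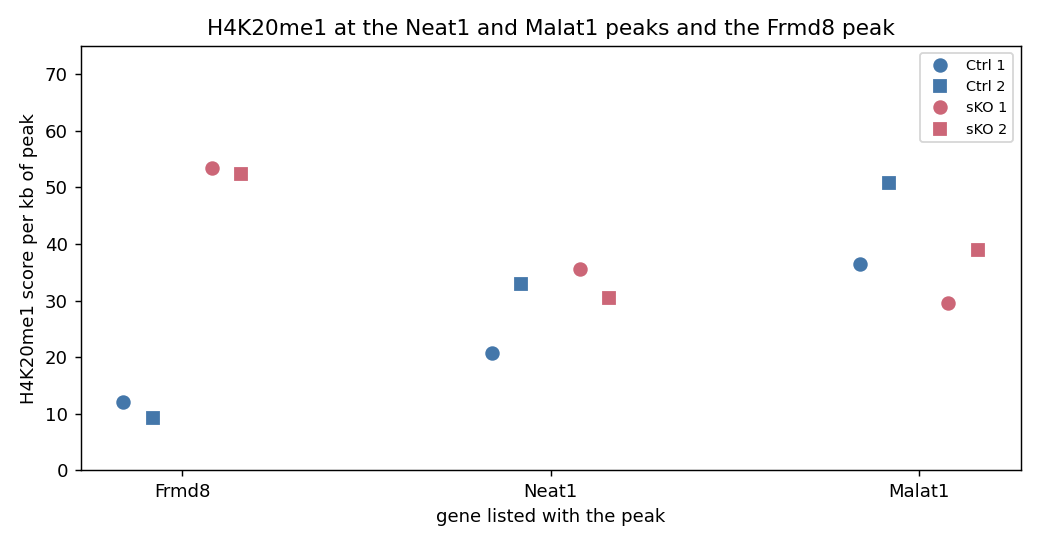
H4K20me1 score per kb of peak (y axis) in every library for the peaks listed with Frmd8, Neat1 and Malat1, in order along the chromosome; blue is Ctrl, red sKO, circles replicate 1 and squares replicate 2. Frmd8 moves from 12 and 9.22 per kb in Ctrl to 53.4 and 52.3 in sKO, while Malat1 has 36.4 and 50.8 in Ctrl and 29.6 and 38.9 in sKO.

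The H4K20me1 level per kb was averaged over the 4 libraries of both genotypes. Malat1 had a mean of 38.9 per kb, percentile 67.9 of all tested genes, whereas Neat1 at 29.9 per kb was at percentile 6.97. Most genes scored higher in sKO, so these percentiles also hold the change between genotypes. The Ctrl libraries alone had 36.4 and 50.8 per kb for Malat1 and 20.7 and 33 for Neat1, and no percentile was computed within Ctrl.

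Pol II S2P was likewise set against the nearest peak on either side. The groups overlapped for Neat1, Malat1 and Snhg1, whereas for 1110038B12Rik both sKO values (0.29 and -0.047) lay below both Ctrl values (0.42 and 0.73). The difference sKO minus Ctrl was 0.18 log2 units for Neat1 (pooled SD 0.22, exact permutation p = 0.667), -0.077 for Malat1 (pooled SD 0.23, p = 1), -0.037 for Snhg1 (pooled SD 0.46, p = 1) and -0.46 for 1110038B12Rik (pooled SD 0.23, p = 0.33). With 2 libraries a group these p-values cannot show that a difference is absent. Against all peaks within 50 kb, Neat1 had higher values in both sKO libraries (difference 0.19, pooled SD 0.047, exact permutation p = 0.33) and Malat1 lower ones (-0.22, pooled SD 0.12, exact permutation p = 0.33). The flanks of each of these genes held the listed peaks of the other, so the 2 shifts are partly the same contrast. On this wider set the groups overlapped for 1110038B12Rik (0.37 and 0.48 in Ctrl, 0.39 and 0.15 in sKO, difference -0.16, exact permutation p = 0.667). They also overlapped for Snhg1 (difference -0.21, exact permutation p = 0.667). Some of the nearest flanking peaks were small: the 2 beside Malat1 scored 14 to 46 and the 2 beside 1110038B12Rik 28 to 97, so single libraries weigh heavily.

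Malat1 was also compared with other genes rich in elongating polymerase. Of 5849 genes tested for both antibodies, Malat1 ranked 49 and Neat1 152 by Pol II S2P score per kb in Ctrl. The 100 genes with the highest value had a median H4K20me1 log2 fold change of 1.03 (quartiles 0.67 and 1.29) against 1.07 over all 5849, and a value below 0 was found in 1 of the 100, Malat1. Among the highest 500 genes 6 had a value below 0, and among all 5849 genes 40 did, of which 1 was lower than Malat1. These sets were chosen after the values had been seen and carry no test.

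The genes most like each lncRNA by score per kb were found by Euclidean distance of log2 values. Over the 8 libraries, Hspa8, a heat shock cognate chaperone, and Rpl3, a ribosomal protein, were nearest to Malat1 (distances 0.623 and 0.633) among 5847 genes. Hspa8 had 34.3 H4K20me1 per kb in Ctrl and 38.8 in sKO, and Rpl3 had 36.2 and 40.7. Ca9, a carbonic anhydrase, and Des, the muscle intermediate filament desmin, were nearest to Neat1 (0.743 and 0.779). Ca9 had 28.8 H4K20me1 per kb in Ctrl and 43 in sKO, and Des had 34.1 and 32.4. The H4K20me1 libraries were part of the match for both genes, so these values are a description. Snhg1 was nearest to Ppfia3 and Ppme1 (0.138 and 0.156), and 1110038B12Rik to Cyp11a1 and Sh2b2 (0.109 and 0.119), over the 4 Pol II S2P libraries.

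For other lncRNAs of these kinds, H4K20me1 calls were read against all genes, of which 92.3% were called higher as deposited and, on equal totals, 20.8% higher and 5.69% lower. Of 15 other lncRNA snoRNA hosts found in the annotation, 2 were tested and both were called higher as deposited (median log2 fold change 1.12), among them Snhg5 with 226, 306, 507 and 498 (0.93, SE 0.28, adjusted p = 0.00142, limma). Of 12 other nuclear lncRNAs, 7 were tested and all 7 were called higher (median 0.92), among them Dleu2 and Pvt1 at 0.92 and 1.12. None of the tested genes of these 2 lists was called on equal totals. Of 68 lncRNAs that hold a snoRNA gene by annotation, 14 were tested, 13 were called higher as deposited (median 0.96) and 4 higher and 0 lower on equal totals. The counts as deposited are near the share over all genes, and no list was tested against other genes. Of 349 genes that hold a snoRNA gene on their strand, protein-coding ones included, 190 were tested, 158 were called higher and 2 had a fold change below 0 (median 0.95 against 1.11 over all genes). On equal totals 31 of the 190 were called lower and 22 higher.

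For the genes of protein partners the shares over all genes were the same 92.3% called higher as deposited and 5.69% called lower on equal totals. Of 8 genes of paraspeckle proteins, 5 were tested for H4K20me1 and 1, Dazap1, was called higher, with a median log2 fold change of 0.41. Sfpq, a core paraspeckle protein that binds Neat1, scored 1644, 1922, 1680 and 1891, and its log2 fold change was 0.0039 (SE 0.27, adjusted p = 0.989, limma). Hnrnpk, an RNA-binding protein of paraspeckles, had 0.34 (SE 0.27, adjusted p = 0.208). Of 8 snoRNP protein genes, Nop58 and Fbl, both core proteins of C/D box particles, were tested and had 0.11 and 0.27 (adjusted p = 0.696 and 0.485, limma). On equal totals Hnrnpk, Sfpq and Smarca4 of the first group and both of the second were called lower, and whether these small lists differ from other genes was not tested. Dazap1, Smarca4, Nop58 and Fbl are named after their values were seen.

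For Pol II S2P no gene of the table was called as deposited, so the lists are described by their medians. None of 8 tested snoRNA host lncRNAs, 3 nuclear lncRNAs, 6 paraspeckle protein genes and 4 snoRNP protein genes was called, and the median log2 fold changes were 0.21, 0.12, -0.015 and 0.023 against 0.089 over all genes. Zfas1, the host with the highest score per kb in its list (303), scored 1270, 1194, 1480 and 1113, and Snhg5 (253 per kb) scored 911, 1044, 1339 and 924. Among the snoRNP protein genes Nhp2 was highest per kb (215) and scored 75, 145, 131 and 99. On equal totals 1 gene of these lists was called higher, Snhg14 (0.80, adjusted p = 8.28e-05, limma), named after its value was seen.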

How the data were processed

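CUT&RUN of H4K20me1 and Pol II S2P was analysed in 8 libraries from cultured MuSCs, 2 per genotype and antibody. According to the methods and labels, the authors trimmed reads with Trimmomatic 0.39, aligned them to mm10 (GRCm38, Ensembl release 99) with STAR 2.7.3a, removed duplicates with Picard 2.21.7 and normalised by S2 cell spike-in. SICER 0.0.41 and MACS2 2.1.1 are named in the submitters' processing notes without a role. The deposited values are a score per union peak and library, with 1 peak set per antibody, and a deposited column holds the fraction of the peak inside its listed gene. The deposited coverage is described as normalised, so the DESeq2 test of the study was not repeated.

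Peaks were matched by Ensembl identifier, named from GENCODE M21, and summed per gene. Genes or peaks on autosomes with a mean score over 50 were tested on log2(score + 1) with limma 3.58.1 in R 4.3.3 (moderated test with trend, genotype as the factor). A call needed a Benjamini-Hochberg adjusted p under 0.1 over all features and an absolute log2 fold change over 0.5. Fold changes are on the log2(score + 1) scale, which understates changes of low scores. Scripts were tested on simulated data. Ratios to flanking peaks within 100 kb used an exact permutation test (two-sided). Gene lists, flanking genes, the most similar genes and, from each list, the 2 with the highest Pol II S2P score per kb are named by rule. Some results at and beside these genes are not reported here. The members and lists were chosen with earlier results of these data known. The replicates are labelled as separate samples, and the p-values measure the spread between them. Alternatives were equal totals, quantile normalisation, a pseudocount of 10, no filter, a replicate block, leaving out each library, other ways of assigning peaks to genes, and flanks within 50 kb.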

Additional observations from a re-analysis of the deposited data

Results flagged for a closer look

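Signal beside these genes was also found in peaks that the deposited tables list with no gene. The 7 such Pol II S2P peaks between Neat1 and Malat1 had a mean summed score of 2460.5 over the 4 libraries. IgG libraries were not analysed here, so no background score stands beside this value.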

How the results depend on the processing

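Scaling between libraries moved the calls most. For H4K20me1, equal totals gave 2858 genes higher and 783 lower (9244 and 1805 peaks), and under quantile normalisation 1426 and 1526 (4749 and 4727 peaks). For Pol II S2P the counts were 108 and 73 genes (561 and 267 peaks) on equal totals and 112 and 29 (522 and 165 peaks) under quantile normalisation, against 0 genes and 10 and 1 peaks as deposited. Neat1 H4K20me1 reversed to -0.65 on equal totals and -1.07 under quantile normalisation (its peak to -0.65 and -0.95), and Malat1 passed the threshold at -1.32 and -1.61 (its peak at -1.32 and -1.52). Pol II S2P peak values reversed to -0.043 at the Neat1 start and, on Malat1, to -0.13 and -0.12 on equal totals and -0.080 and -0.18 under quantile normalisation. With the peaks that lie mostly inside the gene, Snhg1 reversed to 0.22, and 1110038B12Rik had no value. Without the filter, 1 gene and 3 peaks were called higher for Pol II S2P.

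Leaving out 1 library gave 5249 to 13376 H4K20me1 genes higher (without sKO 2 and without Ctrl 2) and 0 to 13 lower, 17895 to 39887 peaks higher and 0 to 47 lower, and for Pol II S2P 0 genes higher, 0 to 2 lower, 0 to 112 peaks higher and 0 to 3 lower. A lone library was assumed to vary like the others. H4K20me1 ranged from -0.0083 to 0.66 for Neat1 and from -0.58 to -0.10 for Malat1, per gene and per peak. Pol II S2P ranged from 0.17 to 0.70 for Neat1, -0.31 to 0.31 for Malat1, -0.38 to 0.28 for Snhg1 and -0.46 to 0.34 for 1110038B12Rik. Per peak, it ranged from -0.74 to 0.097 and -0.41 to 0.38 (1110038B12Rik), -0.43 to 0.25 and -0.059 to 0.49 (Snhg1), -0.051 to 0.24 (start of Neat1), and -0.32 to 0.33 and -0.29 to 0.32 (Malat1).

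Same-numbered libraries correlated at 0.041 for H4K20me1 and -0.043 for Pol II S2P in their deviations from the group means, so the numbers were not taken to pair the samples. With the replicate block, 12718 H4K20me1 genes were called higher, and the peaks called lower fell to 0, as did the Pol II S2P peaks called higher (0) and lower (0); no call of a member changed. The other alternatives changed no direction or call of a member. The causes were not tested, and 2 libraries a group limit every comparison.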
